A study of Rattus norvegicus with 4 samples.

Results

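Integrins are receptors made of an alpha and a beta chain that bind the extracellular matrix or other cells outside the cell, and the actin cytoskeleton inside it. Talin and kindlin bind the beta tail and switch the receptor on, and vinculin, integrin-linked kinase, focal adhesion kinase, paxillin, filamin and alpha-actinin join the receptors to actin and to signalling at focal adhesions. Most adherent cells, glia included, use beta 1, alpha v and their partners, which bind laminin, collagen, fibronectin and tenascin, whereas the beta 2 and beta 7 receptors (alpha L, alpha M, alpha X, alpha D and alpha E) are those of white blood cells, microglia among them.

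The genes described here were 40 named integrin and focal adhesion genes, taken as 7 leukocyte integrins, 17 matrix integrins and 16 cytoplasmic linkers. The array file's own gene names gave 33 of them, on 52 probes. Updated names gave 4 more (Fermt2, Fermt3, Tns1 and Itga9), and the file's probe descriptions gave Tln1 and Zyx. Updated names also gave the probes by which Itga8 and Lims1 were read. Their probes under the file's own names were above background on no array. In all, 63 probes stood for 39 genes, and no probe was found for Itgax. Of these, 35 were among the 22170 genes tested. Itgb2, Itgad, Itgb6 and Fermt3 were well above background on too few arrays to be tested.

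The samples were cultures from male Fischer rats of olfactory ensheathing cells, the glia around bundles of olfactory axons. Flow cytometry separated p75High from p75Low cells by the amount of the neurotrophin receptor p75 (Ngfr) that they carried, at a stated purity of 98%. Each of 4 arrays held what the labels call a biological replicate, in which p75High cells were labelled with Cy5 and p75Low cells with Cy3, so the populations were paired and the dyes were never exchanged. For a single gene, a dye effect and a difference between the populations cannot be told apart. Nothing in the labels tells whether each came from its own animal or culture, and p-values therefore describe the variation of these 4 pairs, part of which may be technical. Both samples were amplified by a global PCR before labelling. Any noise from amplification would be included in the spreads given here, and its size was not measured.

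All 4 arrays lay on 1 slide, and 22464 to 28062 probes stood well above background for p75High cells and 23044 to 26174 for p75Low cells. Ngfr, the gene behind the sort, was higher in p75High cells, by 5.80 ± 0.53 on the log2 scale (limma, adjusted p = 0.0262, SD, n = 4). Sox10 (4.56 ± 1.90) and S100b (3.75 ± 2.42), which mark ensheathing and Schwann glia, were positive on average but did not pass the test. Over all genes tested, the median standard deviation of the 4 log2 ratios was 1.14. The number of arrays limits the precision of each value.

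The probes below are shown because the results turn on them. Each is 60 bases long and is given with its position on the rat build rn4, as the array files place it. The first 4 read alpha chains, and capitals mark the codons for GFFKR, the motif just inside the membrane that alpha chains share and that holds the alpha and beta tails together. A search of the 63 probes found these codons in 3 of them, those of Itgam, Itga3 and the dimmer probe of Itgal.
Itgam, chr1:187385032-187385565, plus strand: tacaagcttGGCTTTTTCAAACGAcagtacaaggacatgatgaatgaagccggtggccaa
Itgal, brighter probe, chr1:186567626-186567685, plus strand: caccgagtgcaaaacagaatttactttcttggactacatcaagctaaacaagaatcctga
Itgal, dimmer probe, chr1:186594579-186597988, plus strand: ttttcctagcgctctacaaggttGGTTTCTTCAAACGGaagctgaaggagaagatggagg
Itga3, chr10:83730084-83730477, minus strand: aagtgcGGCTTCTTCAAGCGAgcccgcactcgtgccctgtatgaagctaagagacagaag
Fermt2, chr15:21359499-21359558, minus strand: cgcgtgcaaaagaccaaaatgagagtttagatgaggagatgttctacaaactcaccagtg
Itga7, brighter probe, chr7:2269332-2269391, plus strand: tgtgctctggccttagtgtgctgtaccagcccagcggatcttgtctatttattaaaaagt
Itga7, dimmer probe, chr7:2264646-2264705, plus strand: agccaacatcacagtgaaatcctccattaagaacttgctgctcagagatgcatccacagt
Itgb5, brighter probe, chr11:68645601-68645660, plus strand: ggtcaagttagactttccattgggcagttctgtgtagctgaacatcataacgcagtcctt
Itgb5, dimmer probe, chr11:68642561-68642620, minus strand: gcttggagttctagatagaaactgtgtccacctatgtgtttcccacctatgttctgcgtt

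Of the 35 genes tested, Fermt2 rose and Itgam fell in p75High cells, and 33 did not pass the test. Over all genes tested, 0.749% passed, with 0.311% higher and 0.438% lower. With 1 gene in each direction, nothing is read from that share. Each value below is the log2 ratio of p75High over p75Low, the adjusted p is from limma over all 22170 genes with Benjamini-Hochberg adjustment at 0.05, and the brightest kept probe stands for a gene.

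Fermt2 encodes kindlin-2, the kindlin of most adherent cells, which binds the beta tail beside talin and activates the receptor. Its log2 ratios were 7.13, 6.34, 6.16 and 7.37 in replicates 1 to 4. All 4 were far above 0, in a range of little over 1. The mean was 6.75 ± 0.59 (SD, n = 4), with a standard error of 0.35, a 108-fold higher level in p75High cells (adjusted p = 0.0262, positive on 4 of 4 arrays). The normalized log2 intensity was 14.08, 13.28, 14.60 and 14.51 in p75High cells, against 6.95, 6.94, 8.44 and 7.14 in p75Low cells. The scanner called this probe well above background in each channel on 4 of 4 arrays, although its p75Low readings were low, and the size of the fold depends on them. The ratio was 7.25 without background correction and 7.79 with the scanner's own ratios. Fermt3, which encodes kindlin-3, the kindlin of blood cells, was well above background on 1 array in p75High cells and on 2 arrays in p75Low cells. Its ratios of -3.64, 0.00, 0.06 and -3.57 fell into a pair far below 0 and a pair at 0, and it was not tested. The pair at 0 came from low readings in both channels, with log2 intensities of 5.95 to 6.02.

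Itgam encodes alpha M, the alpha chain of CD11b/CD18, the complement receptor of microglia, macrophages and neutrophils. Its log2 ratios were -5.40, -6.12, -5.61 and -5.96. These 4 values lay close together and all far below 0. The mean was -5.77 ± 0.33 (SD, n = 4), with a standard error of 0.29, a 54.6-fold lower level in p75High cells (adjusted p = 0.0262, negative on 4 of 4 arrays). The log2 intensity was 8.01, 7.48, 6.99 and 7.90 in p75High cells, against 13.40, 13.60, 12.61 and 13.86 in p75Low cells.

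Without any 1 of the 4 replicates neither Fermt2 nor Itgam passed the test, with adjusted p between 0.0963 and 0.138, while the ratios stayed between 6.54 and 6.95 for Fermt2 and between -5.90 and -5.66 for Itgam. In those 3-array limma fits 0 of all genes tested passed in either direction, and 1880 to 2374 genes had an unadjusted p under 0.05, against 2823 with all 4 arrays.

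**Figure D1:**
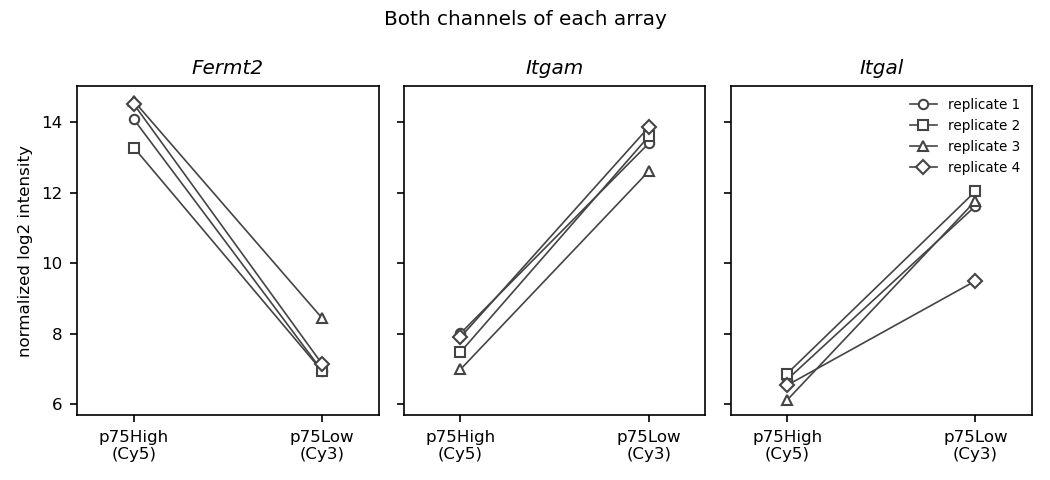
Normalized log2 intensity of Fermt2, Itgam and Itgal in both channels of each array, p75High (Cy5) left and p75Low (Cy3) right, with a line joining the channels of 1 replicate. Fermt2 lay above 13 in p75High cells and below 9 in p75Low cells on every array, Itgam and Itgal were lower in p75High than in p75Low cells on every array, with the smallest gap for Itgal in replicate 4.

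Itgal encodes alpha L, the alpha chain of LFA-1, which binds ICAMs. Its log2 ratios were -4.92, -5.17, -5.65 and -2.96. All 4 were negative, with replicate 4 nearer to 0. The mean was -4.67 ± 1.18 (SD, n = 4), with a standard error of 0.54, a 25.5-fold lower mean in p75High cells that did not pass at an adjusted p of 0.0551. It passed when a probe had to be well above background on all 4 arrays (adjusted p = 0.0408), with the scanner's own ratios (mean -6.33, adjusted p = 0.0434) and when the pairing was ignored (0.00897), and it reached 0.249 in the least favourable of the alternatives. The log2 intensity was 6.70, 6.87, 6.12 and 6.54 in p75High cells, with 3 of the 4 readings above background, and 11.62, 12.04, 11.77 and 9.50 in p75Low cells. The dimmer Itgal probe was above background on 1 array in each channel, with ratios of 0.01, -0.27, -5.63 and 0.32, and was not used.

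The remaining leukocyte integrins gave no ratio far from 0 with the same sign on all arrays. Itgb7, the beta 7 chain of lymphocyte homing receptors, had ratios of -0.48, -0.34, 0.00 and -0.49, a mean of -0.33 ± 0.23 (SD, n = 4) with a standard error of 0.27 (adjusted p = 0.635). Itgae, the alpha E chain of lymphocytes in epithelia, had ratios of 2.47, -0.03, -1.28 and -0.05 by its brighter probe and -1.15, -3.62, 1.26 and 0.92 by its other kept probe. The probes of Itgae thus had opposite signs on 3 of the 4 arrays, and the mean of the brighter probe was 0.28 ± 1.57. Itgb2, the beta chain that pairs with alpha L, alpha M, alpha X and alpha D, was above background on only 2 arrays in each channel and had ratios of 0.12, -2.24, 0.11 and -4.93. Itgad, the alpha D chain, was above background on 1 array in p75High cells and on 2 arrays in p75Low cells, with ratios of -0.07, -0.10, -2.50 and -0.17.

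Markers of microglia and macrophages were, like Itgam, lower in p75High cells. Among the other leukocyte integrins tested, Itgal had a mean of -4.67 without passing, Itgb7 of -0.33 and Itgae of 0.28. Of the 12 listed markers tested, 10 fell, beside 0.438% of all genes tested. All 12 of 12 were negative on all 4 arrays, beside 13.0% of all genes tested. Csf1r, the receptor of colony-stimulating factor, was at -6.08 ± 0.61 and Cx3cr1, the fractalkine receptor of microglia, at -4.32 ± 0.28. The median of the list was -5.01, and its summed intensity ran from 6840 to 13800 in p75High cells, against 312000 to 436000 in p75Low cells. The exceptions were Cd14 (-3.80 ± 2.48) and Cd74 (-1.49 ± 2.19), which did not pass. Of 6 lymphocyte markers tested, only Cd4 fell (-5.71 ± 0.57), a gene that rat macrophages also carry. Cd3e, Cd2 and Ms4a1 were not above background on enough arrays to be tested, and the summed intensity of the list ran from 881 to 1820 in p75High cells and from 3610 to 12400 in p75Low cells. None of the 4 neutrophil markers or of the Gp9 platelet marker passed. The part of macrophage markers in the integrin values was not tested. In mixed RNA such as this, fewer cells of a type and less RNA per cell cannot be told apart.

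The promoter of Itgam is shown because Itgam is the only leukocyte integrin past the test. The RefSeq sequence covers 300 bases around the start on the build GRCr8, chr1:192089342-192089641, plus strand. Capitals mark GAGGAAG and its reverse complement, letters found in many sites of PU.1, the transcription factor of myeloid cells.
Itgam promoter: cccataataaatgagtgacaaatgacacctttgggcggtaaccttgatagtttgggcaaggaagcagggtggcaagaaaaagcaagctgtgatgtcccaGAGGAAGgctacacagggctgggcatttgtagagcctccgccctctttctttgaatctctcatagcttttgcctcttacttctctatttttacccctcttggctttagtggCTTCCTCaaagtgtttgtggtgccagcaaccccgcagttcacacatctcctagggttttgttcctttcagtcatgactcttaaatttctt
The letters were searched on both strands and occurred 2 times, from positions 100 and 211 of the window. They occurred in 4149 of 33469 rat promoters of the same length (12.4%). Of the 28 integrin and linker genes with a promoter entry, 5 held them: Itga11, Itgae, Itgam, Itgav and Itgb6. By class these were 2 of 4 leukocyte integrins, 3 of 13 matrix integrins and 0 of 11 linkers. A match describes letters only, and the values give nothing on binding.

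None of the 16 matrix integrins tested passed the test. Their mean ratios ran from -4.24 to 2.05, with 8 above and 8 below 0, and the median of their standard deviations was 1.36. Of the 16, 1 was positive on all 4 arrays and 3 were negative on all 4, against 12.5% and 13.0% of all genes tested. These counts take Itgb5 by its brighter probe. With its minus-strand probe, 2 were positive and 2 negative on all 4 arrays, 9 means lay above and 7 below 0, and the lowest mean was -2.77. Apart from Itgb5, the positive one was Itga8, the alpha 8 chain that binds nephronectin and other RGD ligands. Its ratios were 2.82, 0.91, 1.49 and 2.10 (mean 1.83 ± 0.82, adjusted p = 0.244), while its second kept probe stood at -0.15, 0.28, -0.01 and -0.13.

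Itga6 and Itgb4 were negative on all 4 arrays, as was the brighter probe of Itgb5, whose other probe was positive on all 4. Itga6 and Itgb4 encode the alpha 6 and beta 4 chains, which together make a laminin receptor. Itga6 had ratios of -0.82, -2.47, -3.99 and -0.97, a mean of -2.06 ± 1.48 (SD, n = 4) with a standard error of 0.65 (adjusted p = 0.339). Itgb4 had ratios of -0.79, -0.18, -0.51 and -0.79, a smaller mean of -0.57 ± 0.29. The second Itga6 probe gave -0.80, 0.46, 0.67 and -4.54, so its mean was also negative (-1.05) but its sign differed between arrays.

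Itgb5, the beta chain of an alpha v receptor for vitronectin, had ratios of -5.54, -0.09, -5.45 and -5.91 by its brighter probe. Replicate 2 stood near 0, with a low reading in both channels (log2 intensity 6.19 and 6.28), and the others were far below it. The mean of -4.24 ± 2.78 (SD, n = 4), with a standard error of 1.15, did not pass (adjusted p = 0.302). That probe lies on the plus strand and the other Itgb5 probe on the minus strand, which made Itgb5 the only gene of the 39 with probes on both strands. The minus-strand probe gave 0.13, 0.25, 3.55 and 0.92, with a mean of 1.21 and the opposite sign. RNA of the gene and RNA antisense to it cannot be told apart by these names, and no direction is given for Itgb5.

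Itga5 is the alpha 5 chain of the fibronectin receptor. Its ratios were -5.16, -5.12, -0.84 and 0.02, a mean of -2.77 ± 2.75 (SD, n = 4) with a standard error of 1.14 (adjusted p = 0.417). Replicates 1 and 2 were far below 0 and the others near it. Its second probe gave 0.05, 0.47, 1.19 and 0.38, all above 0.

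The beta 1 chain, encoded by Itgb1, is the partner of most matrix alpha chains. Its ratios were 0.54, 2.67, -0.54 and 5.53 by the brighter probe (mean 2.05 ± 2.68) and 3.16, 2.29, 0.94 and -4.27 by the other. The 2 probes of Itgb1 differed most in replicate 4, where one gave the highest and the other the lowest value of the gene. Itgav, the alpha v chain, had ratios of 0.34, -0.58, 2.94 and -6.01 by its brighter probe, a spread of 3.76 and the widest of the matrix integrins. Its other probe gave -3.29, 2.46, 1.85 and -0.10.

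Itga7, the alpha 7 chain of laminin receptors in muscle and Schwann cells, had ratios of 0.89, 0.99, -0.76 and 2.49 by its brighter probe, a mean of 0.90 ± 1.33. The dimmer probe gave 6.57, 6.84, 6.17 and -0.02, a mean of 4.89 ± 3.29. By that probe replicates 1, 2 and 3 were above 6, and replicate 4 was at 0. The scanner called both Itga7 probes well above background in each channel on 4 of 4 arrays. That call does not tell how far above background a reading was, and low p75Low readings would enlarge the ratio.

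The other matrix integrins did not pass the test either. Among collagen receptors, Itga1 had 2.97, 2.26, -0.22 and 1.09 (mean 1.53 ± 1.40), Itga2 ran from -1.02 to 0.73 and Itga11 from -0.29 to 0.97. Itga3, an alpha chain of laminin receptors, ran from -0.80 to 0.23 with a mean of -0.11 ± 0.47. Itga4, whose product binds VCAM1 and fibronectin and which leukocytes also use, had 0.30, -3.11, -0.04 and -4.36 (mean -1.80 ± 2.29). Itga9, the alpha 9 chain that binds tenascin C, ran from -0.79 to 1.50. Itgb3, the beta 3 chain of the vitronectin receptor, ran from -1.02 to 0.00 with a mean of -0.48 ± 0.42. Itgb8, the beta 8 chain that activates latent TGF-beta, ran from -0.15 to 4.42 with a mean of 1.34 ± 2.14. Itgb6, the beta 6 chain of epithelia, was above background in neither channel on any array.

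**Figure D2:**
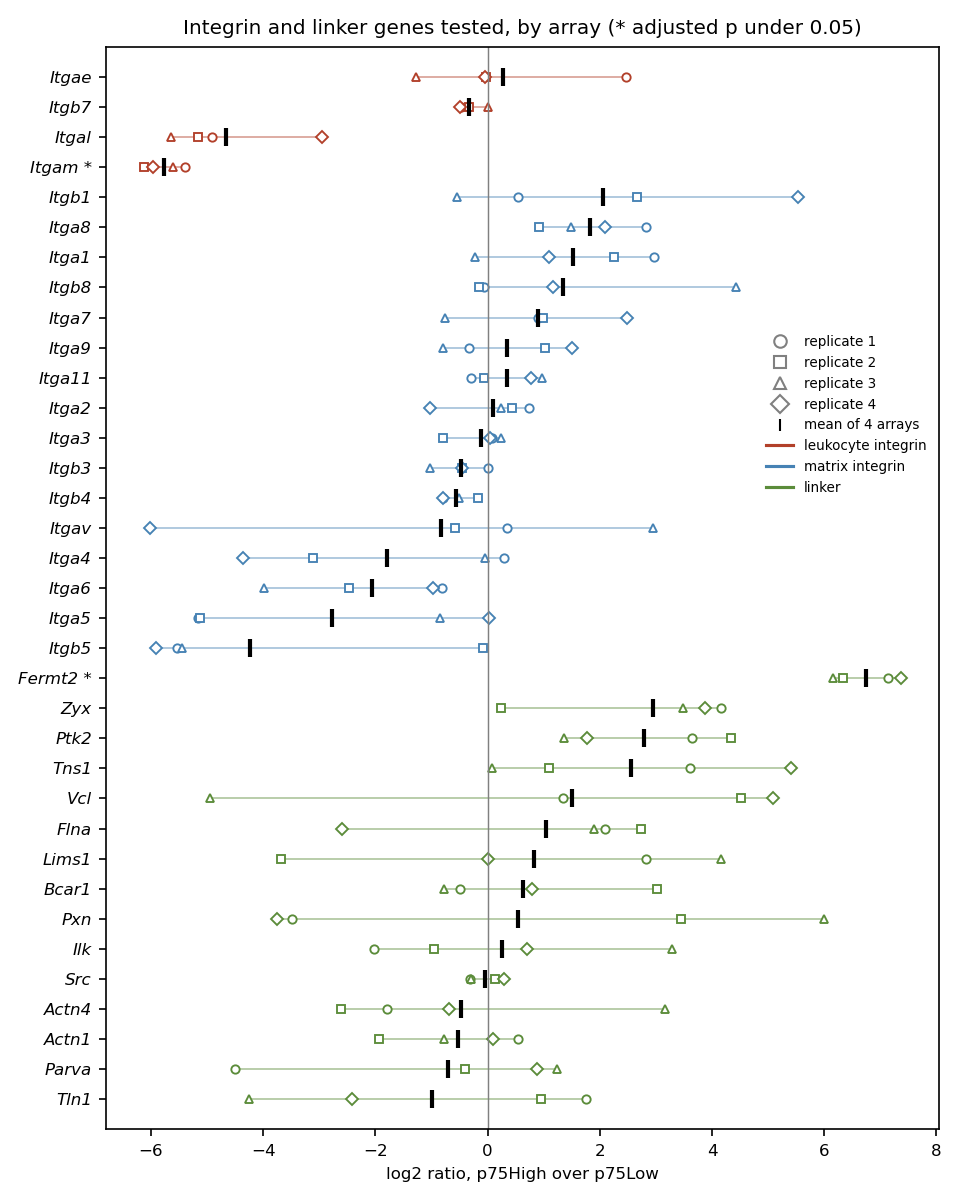
Log2 ratio of p75High over p75Low for the 35 genes tested, by class, with 1 symbol for each replicate, a line from the lowest to the highest array and a black bar for the mean. Fermt2 stands above 6 and Itgam below -5 on every array, while most linkers spread across 0.

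Of the 15 linkers tested, Fermt2 alone passed. The linkers spread more widely than the integrins, with a median standard deviation of 2.42, against 0.75 for the leukocyte integrins and 1.36 for the matrix integrins. Their mean ratios were above 0 for 10 and below 0 for 5, and 4 of 15 were positive on all 4 arrays, beside 12.5% of all genes tested.

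Besides Fermt2, those 4 were Zyx, Ptk2 and Tns1. Zyx encodes zyxin, a LIM protein of mature adhesions under tension, and had ratios of 4.16, 0.24, 3.48 and 3.87. Replicate 2 was near 0, and the mean was 2.94 ± 1.82 (SD, n = 4) with a standard error of 0.78 (adjusted p = 0.296). Ptk2 encodes focal adhesion kinase and had ratios of 3.64, 4.33, 1.37 and 1.78, a mean of 2.78 ± 1.43 (SD, n = 4) with a standard error of 0.63 (adjusted p = 0.241). Its other 2 kept probes had means of 1.76 and 0.00, so the height of Ptk2 depended on the probe. Tns1, tensin 1, which binds beta tails and actin, had ratios of 3.60, 1.09, 0.08 and 5.41 (mean 2.55 ± 2.42).

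The other activator and the actin links had no common sign. Tln1 encodes talin 1, the partner of kindlin on the beta tail, and had ratios of 1.75, 0.95, -4.26 and -2.41, with a mean of -0.99 ± 2.82. Vcl, vinculin, had 1.35, 4.52, -4.95 and 5.08 by its brightest probe, whereas its other 2 kept probes, which overlap each other, lay between -0.84 and 0.26 on all arrays. Flna, filamin A, had 2.10, 2.74, 1.90 and -2.59, with replicate 4 on the other side of 0. The p75High log2 intensity of Flna was 6.22 in replicate 4, against 12.46 to 13.37 in the others. Actn1 and Actn4, the alpha-actinins of most cells, had means of -0.52 ± 1.09 and -0.48 ± 2.56.

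The complex of integrin-linked kinase, PINCH and parvin, which sits on the beta tail, was no closer to a common sign. Ilk had -2.03, -0.95, 3.28 and 0.71. Lims1, which encodes PINCH, had 2.82, -3.68, 4.16 and 0.00, with a log2 intensity of only 6.05 in both channels of replicate 4. Parva, alpha-parvin, had -4.50, -0.40, 1.23 and 0.88. Replicate 3 held the highest value of all 3 genes.

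Among the scaffolds and kinases, Pxn, paxillin, had the widest spread of all 35 genes, with ratios of -3.48, 3.44, 6.00 and -3.76 (mean 0.55 ± 4.93). Its other 2 kept probes had means of 2.35 ± 2.29 and 1.11 ± 1.00, and the median over the probes of Pxn was 1.31. Bcar1, the scaffold p130Cas, had -0.50, 3.02, -0.78 and 0.80. Src, the kinase that phosphorylates both scaffolds, stayed between -0.31 and 0.29 with a mean of -0.05 ± 0.30.

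For 12 genes more than 1 probe was kept, and the means of the probes lay over 1 apart on the log2 scale in 10 of them. In 5 of the 12 the probe means had opposite signs: Itga5, Itgae, Itgav, Itgb5 and Vcl. Fermt2 and Itgam each rested on 1 probe, so no second probe bears on either.

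**Figure D3:**
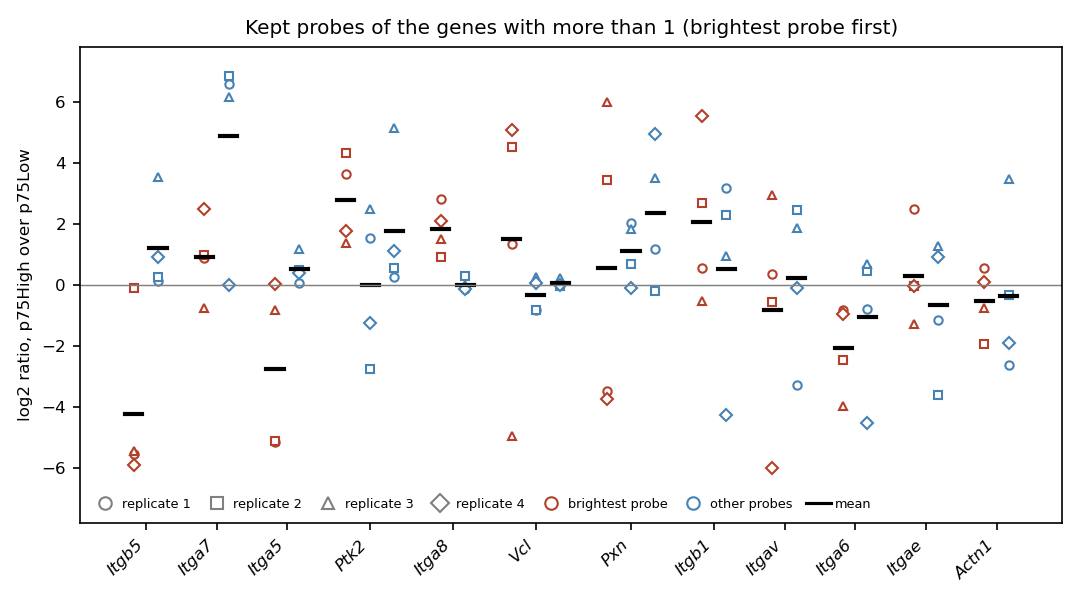
Log2 ratio of p75High over p75Low for each kept probe of the 12 genes with more than 1, brightest probe in red and others in blue, with 1 symbol for each replicate and a black bar for the mean. The widest gaps between probe means were those of Itgb5 (-4.24 and 1.21) and Itga7 (0.90 and 4.89).

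The contrast between the classes was taken from medians and carries no test. The median log2 ratio was -2.50 for the 4 leukocyte integrins tested, -0.01 for the 16 matrix integrins and 0.63 for the 15 linkers, beside -0.03 for all genes tested. The leukocyte median was -2.70, -2.75, -3.45 and -1.73 in replicates 1 to 4, below both other classes on every array. The leukocyte median minus the matrix median was -2.74, -2.64, -3.08 and -1.76, and minus the linker median it was -4.05, -3.70, -4.82 and -2.44. With 4 genes, this median lies midway between Itgal and Itgb7, and it describes a class of which 2 genes were far below 0 and 2 were near it. Without the filter on arrays above background, which had kept out Itgb2 and Itgad, it was -1.22, and the gap to the matrix integrins was -1.20 in place of -2.49. The linker median was 1.01 without replicate 1 and 0.10 without replicate 3.

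**Figure D4:**
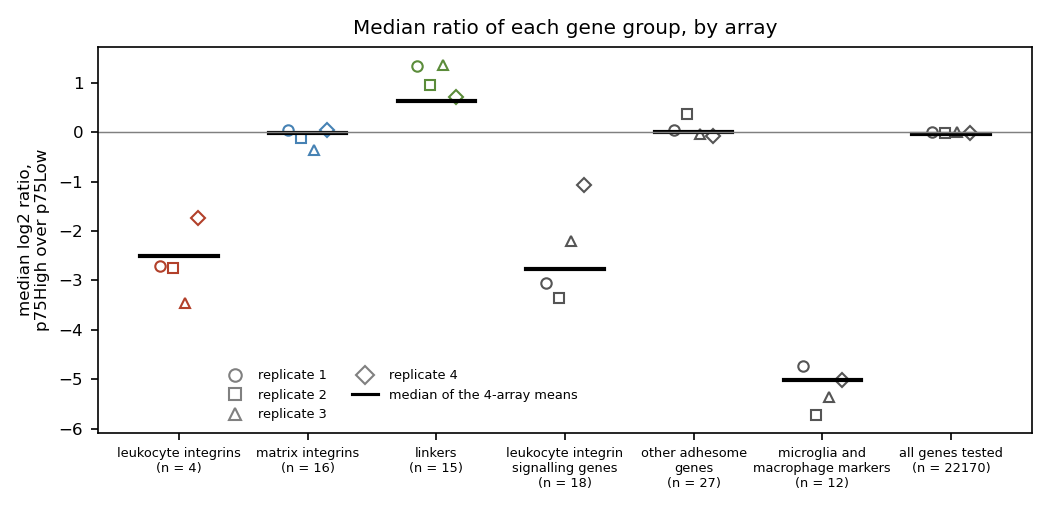
Median log2 ratio of p75High over p75Low of each gene group on each of the 4 arrays, with a black bar for the median of the 4-array means. The leukocyte integrins, the leukocyte signalling genes and the macrophage markers lie below 0 on every array, and the matrix integrins and all genes lie near 0.

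Genes that signal from integrins in leukocytes were read beside the receptors. Of 18 tested, 1 fell: Tyrobp, the adaptor DAP12, with ratios of -3.44, -4.99, -5.02 and -4.89 (mean -4.58 ± 0.77, adjusted p = 0.0319). Tyrobp is also 1 of the macrophage markers above. The median of the list was -2.78, and 14 of 18 were negative on all 4 arrays, beside 13.0% of all genes tested. None of the list was positive on all 4.

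The ligands were read in 3 lists. Of 13 genes for fibronectin, vitronectin and other RGD ligands, Tnc, which encodes tenascin C, alone rose, at 7.70, 7.37, 7.11 and 7.97 (mean 7.54 ± 0.38, adjusted p = 0.0262), and the list's median was 0.15. None of 11 laminin and collagen genes passed. Their median was 2.00, and 6 were positive on all 4 arrays, beside 12.5% of all genes tested, while Col1a2 was negative on all 4 (-2.71 ± 1.48). The smallest p-values among them belonged to Lama5 (2.63 ± 0.38, adjusted p = 0.0547) and Lama4 (5.95 ± 2.11, adjusted p = 0.105), chains of laminins of vessels and other basement membranes. None of 9 cell-surface and complement ligands of leukocyte integrins passed, and their median was -0.22. Those with the smallest p-values were C3, the source of the iC3b that alpha M binds (-3.72 ± 2.54, adjusted p = 0.311), and Thy1 (-0.99 ± 0.38, adjusted p = 0.325).

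Adhesion genes shared by most cells and the lateral partners of integrins were read in a further 2 lists. None of 27 other adhesome genes passed, and their median was 0.00. Dock1, an activator of Rac, was among the 2 with the smallest p-values (-1.67 ± 0.87, adjusted p = 0.296). None of 10 tetraspanins and lateral partners passed, with a median of -0.35, and the smallest p-values were those of Cd37, a tetraspanin of leukocytes (-2.25 ± 1.79, adjusted p = 0.359), and Cd81 (1.99 ± 2.23, adjusted p = 0.458).

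Markers of other cell types stood as follows. Of 12 ensheathing and Schwann glia markers, Ngfr alone passed, and their summed intensity ran from 28400 to 54000 in p75High cells and from 3570 to 18500 in p75Low cells. None of 7 fibroblast, 5 smooth muscle and pericyte, 4 endothelial and 5 epithelial markers passed. The summed intensity of the endothelial list ran from 1460 to 1990 in p75High cells, against 664 to 815 in p75Low cells. For the epithelial list it was 1580 to 2460 against 701 to 1500. For the smooth muscle and pericyte list it was 19500 to 45200 against 814 to 33000. The summed intensity of the fibroblast list ran from 103000 to 180000 in p75High cells, against 20200 to 23600 in p75Low cells, while its genes went both ways. Col5a2 (6.17 ± 1.75), Postn (4.80 ± 1.60) and Col1a1 (2.73 ± 1.20) were positive on all 4 arrays, Col1a2 (-2.71 ± 1.48) and Thy1 (-0.99 ± 0.38) were negative on all 4, and 3 of the 7 means were below 0. The part of these markers in the matrix integrin, linker and ligand values was not tested.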

How the data were processed

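RNA of p75High and p75Low cells was read on 4 arrays of Agilent rat design 014879 (2 colours), with Feature Extraction 10.5.1.1 per the file headers and 10.5 per the submitters' processing notes. Per the file headers, the intensity values deposited are mean spot brightness and median local background per channel, not normalized. The log10 ratios (red over green), per the file headers, come from background-subtracted and dye-normalized signals, and the authors' value table of the series holds the same ratios (largest difference 0), so its scale and direction are known. The genome build in the file headers is rn4.

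In limma 3.58.1 (R 4.3.3), normexp with an offset of 50 corrected the background, and loess with a span of 0.3 normalized each array. Of 173516 readings of gene spots, 1112 (0.641%) marked as outliers were left out, and 0 were saturated. Repeat spots were averaged, and probes were kept that 1 channel showed well above background on 3 or more arrays (24941 of 41012 probes). Each gene was read by its brightest kept probe. Log2 ratios computed from the deposited intensities were fitted against 0 with lmFit and eBayes, two-sided, with Benjamini-Hochberg adjustment at 0.05 over 22170 genes. The fit was tested on simulated data drawn with the spread of each real gene. It recovered 0 of 50 genes at a log2 change of 1 and 0 of 50 at 2. At 4 it recovered 18 of 50 and at 5 it recovered 27 of 50. Of 21857 unchanged genes, 0 passed. A gene that did not pass may therefore still differ.

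Names were updated through a RefSeq table of the assembly GRCr8, by accession for 11150 probes, by symbol for 5116, by older symbol for 3422 and by gene ID for 1071, with 20251 unmatched and 2 named by description. The promoter is RefSeq's, on GRCr8. Exon and untranslated-region positions of the probes were not analysed here.

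The pairing comes from the design text. After removal of population means, the channels of the same array correlated across genes at 0.13, 0.10, 0.06 and 0.22, and the highest value with another array was 0.03. The channels of an array share its spots, hybridization and normalization. These correlations therefore cannot tell whether the cells were paired. The integrin and linker genes, the lists, the tests and the alternatives were chosen with earlier results of these data known. Named genes were the 40 integrin and linker genes, with full statistics for those past the threshold and the 3 largest mean ratios of each class, and from each list those past the threshold or the 2 with the smallest p. Some genes of the lists are not reported here.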

Additional observations from a re-analysis of the deposited data

Results flagged for a closer look

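Among 40 sets of 4 array values examined, 2 had 1 array far from the other 3, by a gap over Dixon's critical value for 4 samples, which chance passes in about 1 of 20 sets. Itgb5 stood at -0.09 in replicate 2, against -5.91 to -5.45 in the others. Its log2 intensity in replicate 2 was 6.19 in p75High and 6.28 in p75Low cells. These readings were close to the means of Itgb6 (6.11 and 6.14), which was not above background on any array. Flna stood at -2.59 in replicate 4, against 1.90 to 2.74 in the others. Its p75High log2 intensity was 6.22 in replicate 4, against 12.46 to 13.37 in the others.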

How the results depend on the processing

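Fermt2 and Itgam passed the test with no background correction, scanner ratios, median centring, either other filter, outlier spots kept, the median over probes and no replicate block, and failed it without any 1 replicate (higher and lower counts among these genes and among all genes were then 0). Genes past the threshold numbered 69 higher and 97 lower, against 113 and 154 with scanner ratios, 37 and 52 without a filter and 176 and 166 with the pairing ignored (no replicate block). Integrin and linker genes that passed lower numbered 2 in place of 1, as Itgal joined, with scanner ratios, the stricter filter and the pairing ignored, and those that passed higher numbered 0 under the file's gene names alone, which do not name Fermt2. That last setting left out genes and not probes, so Itga8 and Lims1 kept their probes from updated names. The pairing changed no other call of these genes. Median centring moved the median of all genes to 0.13, from which its ratios should be read.

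The leukocyte median of -2.50 was -3.35 with scanner ratios and -1.22 without a filter, and -2.76 to -2.39 without 1 replicate. The matrix median of -0.01 was 0.22 with the stricter filter and also with the minus-strand probe for Itgb5, and the linker median of 0.63 ran from 0.10 to 1.01 without 1 replicate. The leukocyte minus matrix gap of -2.49 was -3.49 with scanner ratios, -1.20 without a filter and -1.90 with Itga4 among the leukocyte integrins, and the leukocyte minus linker gap of -3.13 was -1.81 without a filter. Fermt3 was not tested, so moving it between classes gave no value. The choices of the Itgb5 probe and of gene names were made after seeing the data.

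Of the 35 genes, 21 kept their sign in every alternative and 14 did not, all of them short of the threshold. Itgb5 was 1.21 with the stricter filter and with the minus-strand probe. Src and Itga3 were both 0.07 with median centring, and Itgae was -0.19 with the median over probes. Without 1 replicate, the ratio of Itga2 ran from -0.12 to 0.47, of Itga3 from -0.22 to 0.12, of Itga9 from -0.04 to 0.73, of Itgav from -2.08 to 0.90, of Itgae from -0.46 to 0.79, of Src from -0.16 to 0.04 and of Tln1 from -1.91 to 0.10. In the same fits Pxn ran from -1.27 to 1.99, Parva from -1.34 to 0.57, Lims1 from -0.29 to 2.33, Actn4 from -1.70 to 0.23, Bcar1 from -0.16 to 1.11 and Ilk from -0.75 to 1.01. The cause of these changes was not tested.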
